A study of Citrullus lanatus with 4 samples.

Results

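RNA-seq counts from watermelon floral organs were searched for genes that were far lower in the floral bud than in the open flower of both a male sterile and a male fertile line. The 57 genes of this set, out of 19732 genes with at least 1 count, were chosen by their CPM (a gene's count divided by the sum of its library, times 1000000). The genes were selected on 3 conditions: a flower level of at least 10 CPM in both lines, a ratio of flower to floral bud of at least 8 in both lines, and a ratio between the 2 flower libraries of 0.5 to 2, all ratios on CPM + 1. Every level described here therefore took part in the choice, and the difference between organs is given as a description without a test. Tissue came from the male sterile line DAH3615-MS (genotype msms), which derives from a Chinese male sterile line carrying ms-1, and from its near-isogenic male fertile line DAH3615 (Msms), both taken from a population that segregated 1:1. The 4 libraries were DAH3615-MS flowers, DAH3615-MS floral buds, DAH3615 flowers and DAH3615 floral buds, with 1 library for each condition, so no value has a replicate error. Floral buds were cut 1 day before flowering from nodes 22 to 23, at 3 to 4 mm in DAH3615-MS and 7 to 8 mm in DAH3615. Flowers were cut from nodes 16 to 17 on their opening day. Organ and node position cannot be told apart in this design, nor can line and bud length.

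A flower that opens expands its petals, fills them with pigment and scent compounds, secretes nectar and soon begins to wither. Many of the enzymes and transport proteins for these steps are made only at that stage, and much of this happens in petals and nectaries rather than in pollen. Pollen and the tapetum, the cell layer that feeds it, bring their own large programme of transcripts, which a male sterile flower may lack. The limit on the ratio between the lines keeps out genes whose flower levels differ over 2-fold between the lines. Genes of such a programme with a smaller difference in flowers can stay in the set.

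The flower thresholds were passed by 122 genes in DAH3615-MS and by 111 in DAH3615. Both lines shared 65 of these genes, which is the count the rule itself fixes, and 8 of them fell outside the limit between the lines and left 57. The same thresholds with the organs exchanged were met by 149 genes in DAH3615-MS and 110 in DAH3615, of which 57 were shared and 54 lay within the limit between the lines. Sets of similar size were thus restricted to the flower and to the floral bud.

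Libraries held 5239032 counts in DAH3615-MS flowers, 5778852 in DAH3615-MS floral buds, 6315796 in DAH3615 flowers and 5631190 in DAH3615 floral buds, so that 10 CPM stood for 52.4 to 63.2 counts. The 57 genes together took 44180 counts in DAH3615-MS flowers and 3539 in DAH3615-MS floral buds, or 0.843% and 0.0612% of the library. In DAH3615 they took 46307 counts in flowers and 3178 in floral buds, or 0.733% and 0.0564%. As CPM their sum was 13.8-fold higher in flowers than in floral buds in DAH3615-MS and 13.0-fold higher in DAH3615. The 4 genes with the most flower counts made up 33.3% of the set's counts in DAH3615-MS flowers and 35.1% in DAH3615 flowers.

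Flower levels of the single genes ran from 15.3 to 837 CPM in DAH3615-MS (median 95.2) and from 11.1 to 673 CPM in DAH3615 (median 78.1). Their floral bud levels ran from 0.173 to 60.4 CPM in DAH3615-MS (median 5.88) and from 0 to 64.3 CPM in DAH3615 (median 4.97). Within each gene the 2 flower values lay above both floral bud values, as the rule requires. Floral buds were not silent for all of them. Both floral bud libraries held at least 10 CPM for 16 genes, while 5 genes stayed under 1 CPM in both.

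**Figure D1:**
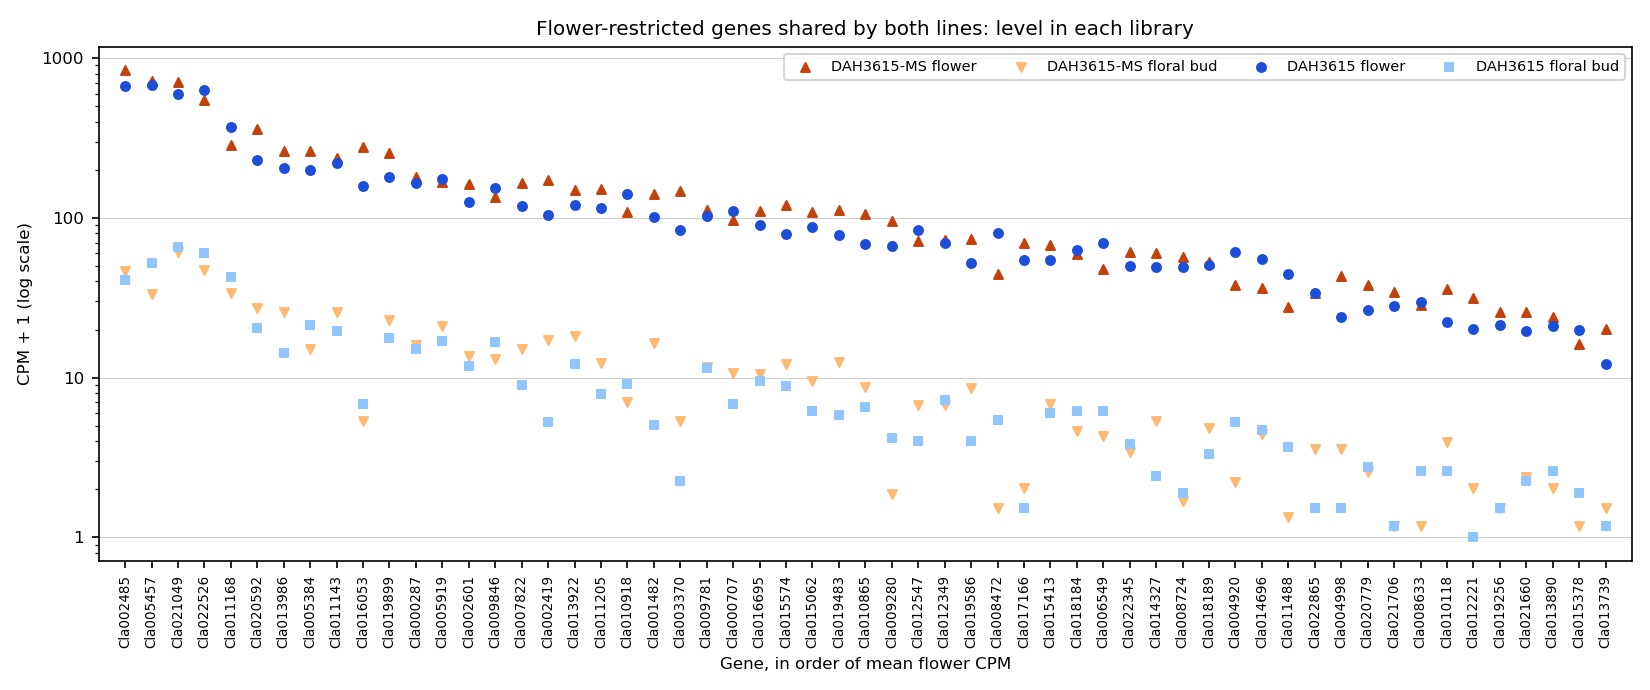
Level of each of the 57 genes in the 4 libraries, as CPM + 1 on a log axis, with genes in order of their mean flower CPM. Each symbol is 1 library, and the flower symbols of both lines (11.1 to 837 CPM over all genes) lie above the floral bud symbols of the same gene (0 to 64.3 CPM over all genes).

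Descriptions of gene products were available for 1999 of the 19732 genes with a count (10.1%), namely the part of the study's gene table that ends at Cla003269, and for 6 of the 57 genes (10.5%). The other 51 genes are known here by their identifier and position alone. Positions are those of version 1 of the watermelon genome. No sequence of any of the genes was used here. Of the 6 described genes, 2 encode metabolic enzymes, 2 encode proteins of gene regulation and signalling, 1 is described as light regulated, and 1 carries only the name of a rice locus.

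Chalcone synthase, the enzyme that makes the first compound of the flavonoid pathway and so feeds flower pigments, was encoded by Cla000287 on chromosome 0 (unplaced sequence), from 16134573 to 16137444 on the minus strand. It had 945 counts in DAH3615-MS flowers and 87 in DAH3615-MS floral buds, with 1044 in DAH3615 flowers and 80 in DAH3615 floral buds. Its flower level was 180 CPM in DAH3615-MS and 165 CPM in DAH3615, and the ratio of flower to floral bud was 11.3 and 10.9 in the same lines. The values of the lines lay close to each other in both organs. Malate synthase, an enzyme of the glyoxylate cycle, which lets plant cells turn the products of fat breakdown into sugars, was encoded by Cla002601 on chromosome 3, from 3736593 to 3739413 on the minus strand. This gene had 848 counts in DAH3615-MS flowers and 73 in DAH3615-MS floral buds, with 791 in DAH3615 flowers and 61 in DAH3615 floral buds. The ratio of flower to floral bud was 11.9 in DAH3615-MS and 10.7 in DAH3615. Ratios of both enzymes lay near the medians of the set, 11.5 in DAH3615-MS and 11.7 in DAH3615, so their likeness is not particular to them.

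A homeobox leucine zipper protein, from a family of transcription factors found in plants, was encoded by Cla002419 on chromosome 7, from 23441137 to 23441994 on the plus strand. Counts were 904 in DAH3615-MS flowers and 94 in DAH3615-MS floral buds, with 654 in DAH3615 flowers and 24 in DAH3615 floral buds. The gene was thus higher in DAH3615-MS in both organs, more so in the bud, and its ratio of flower to floral bud was 10.1 in DAH3615-MS and 19.9 in DAH3615. The gene of a light regulated protein-like protein was Cla001482 on chromosome 6, from 1699929 to 1700563 on the plus strand. It showed the same pattern, with 729 counts in DAH3615-MS flowers and 90 in DAH3615-MS floral buds, and with 635 in DAH3615 flowers and 23 in DAH3615 floral buds. In rice, transcripts of the light-regulated gene of this name follow light and the daily cycle, and the hour of harvest was not known here.

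Serine/threonine-protein kinase 3, one of the enzymes that switch other proteins by phosphorylation, was encoded by Cla000707 on chromosome 1, from 26768768 to 26769838 on the minus strand. It had 499 counts in DAH3615-MS flowers and 56 in DAH3615-MS floral buds, with 687 in DAH3615 flowers and 33 in DAH3615 floral buds, and its ratio of flower to floral bud was 9.003 in DAH3615-MS and 16.002 in DAH3615. Cla002485, on chromosome 10 from 13047918 to 13048835 on the plus strand, is described only as Os06g0220000 protein. Of the 57 genes it took the most flower counts as a mean over both lines. Its counts were 4383 in DAH3615-MS flowers and 262 in DAH3615-MS floral buds, with 4245 in DAH3615 flowers and 225 in DAH3615 floral buds, which is 837 and 45.3 CPM in DAH3615-MS and 672 and 40.0 CPM in DAH3615. Both lines had a ratio above 16 for this gene, 18.1 in DAH3615-MS and 16.4 in DAH3615.

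After Cla002485, the genes with the most flower counts were Cla005457, Cla021049 and Cla022526, none of them with a description here. Counts are not corrected for transcript length, as the count table gives only the span from gene start to gene end, so the order ranks genes by reads taken and not by transcripts. Cla005457 (chromosome 7, from 28458229 to 28460392) had 3776 counts in DAH3615-MS flowers and 187 in DAH3615-MS floral buds, with 4248 in DAH3615 flowers and 287 in DAH3615 floral buds. Cla021049 (chromosome 5, from 24069818 to 24072036) had 3705 in DAH3615-MS flowers and 349 in DAH3615-MS floral buds, with 3735 in DAH3615 flowers and 362 in DAH3615 floral buds. Cla022526 (chromosome 8, from 24373048 to 24374646) had 2849 in DAH3615-MS flowers and 267 in DAH3615-MS floral buds, with 4001 in DAH3615 flowers and 335 in DAH3615 floral buds. These 4 genes were the only ones of the set with a mean flower level above 327 CPM, and all of them also had over 30 CPM in each floral bud library. Their ratios of flower to floral bud were 11.5 to 21.6 in DAH3615-MS and 9.07 to 16.4 in DAH3615.

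The next 6 genes by mean flower CPM had levels of 216 to 327 CPM. Cla011168 on chromosome 3 had 1483 counts in DAH3615-MS flowers and 191 in DAH3615-MS floral buds, with 2338 in DAH3615 flowers and 236 in DAH3615 floral buds, lower in DAH3615-MS in both organs. For Cla020592 on chromosome 5 the counts were 1879 in DAH3615-MS flowers and 152 in DAH3615-MS floral buds, with 1440 in DAH3615 flowers and 110 in DAH3615 floral buds, higher in DAH3615-MS in both organs. Cla013986 on chromosome 1 held 1363 counts in DAH3615-MS flowers and 144 in DAH3615-MS floral buds, with 1285 in DAH3615 flowers and 75 in DAH3615 floral buds. For these genes the lines differed less than the organs, which the rule requires for flowers and bounds for floral buds. Cla005384 on chromosome 7 held 1367 counts in DAH3615-MS flowers and 81 in DAH3615-MS floral buds, with 1244 in DAH3615 flowers and 115 in DAH3615 floral buds. For Cla011143 on chromosome 3 they were 1227 in DAH3615-MS flowers and 142 in DAH3615-MS floral buds, with 1378 in DAH3615 flowers and 105 in DAH3615 floral buds. Cla016053 on chromosome 2 stood apart among the 10 genes with the highest mean flower CPM by its low floral bud values. It had 1440 counts in DAH3615-MS flowers and 25 in DAH3615-MS floral buds, with 989 in DAH3615 flowers and 33 in DAH3615 floral buds.

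Ratios of flower to floral bud lay between 8.05 and 51.8 in DAH3615-MS (median 11.5) and between 8.06 and 37.2 in DAH3615 (median 11.7). The smaller of a gene's 2 ratios was under 10 for 22 of the 57 genes, and it was at least 16 for 6 genes. Much of the set thus lay near the threshold, and a small group well above it. Among the 10106 genes with at least 10 CPM in both flower libraries, of which the set makes up 0.564%, the median ratio was 1.04 in DAH3615-MS and 1.02 in DAH3615.

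**Figure D2:**
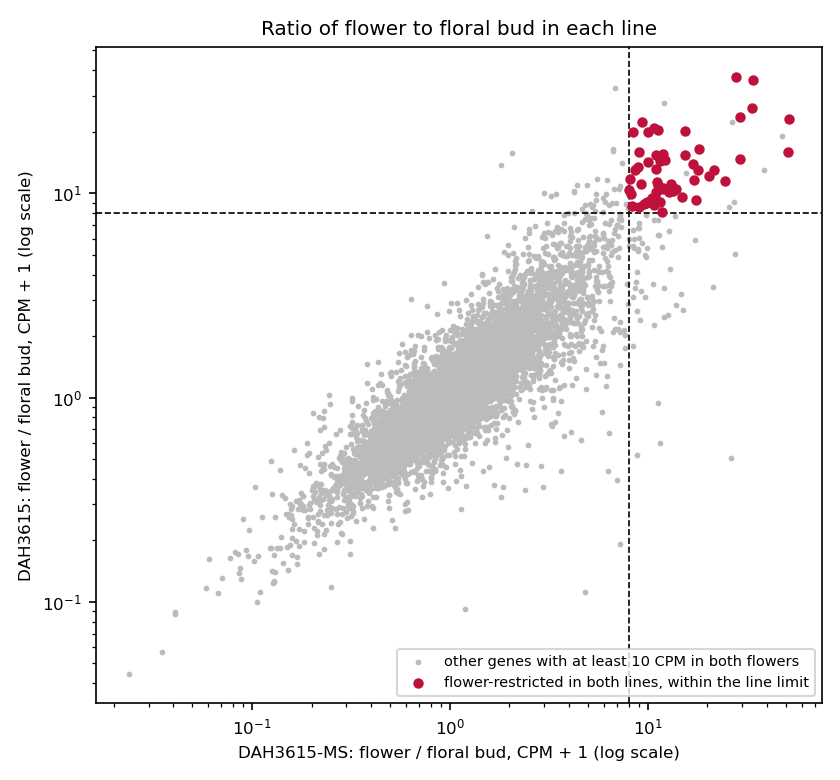
Ratio of flower to floral bud (CPM + 1) in DAH3615-MS on the horizontal axis and DAH3615 on the vertical axis, both log axes, for the 10106 genes with at least 10 CPM in both flower libraries. Each point is a gene, and the dashed lines mark the ratio of 8. The 57 genes of the set (red) lie in the corner above both lines, with DAH3615-MS ratios of 8.05 to 51.8 and DAH3615 ratios of 8.06 to 37.2. The same corner holds the 8 genes (grey) that the limit between the lines left out.

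The 5 genes with the largest values of the smaller ratio were Cla017166, Cla003370, Cla008724, Cla021706 and Cla016053. Cla017166, on chromosome 10 from 19221892 to 19222275, took 357 counts in DAH3615-MS flowers and 6 in DAH3615-MS floral buds, with 339 in DAH3615 flowers and 3 in DAH3615 floral buds. Without the added 1 CPM, flowers were 65.6-fold higher than floral buds in DAH3615-MS (95% exact binomial counting interval 29.9 to 180) and 101-fold higher in DAH3615 (34.2 to 491). Such intervals cover counting error only, not the spread between plants. Cla003370, on chromosome 11 from 7658790 to 7659877, took 771 counts in DAH3615-MS flowers and 25 in DAH3615-MS floral buds, with 520 in DAH3615 flowers and 7 in DAH3615 floral buds. Its folds were 34.0 in DAH3615-MS (22.9 to 52.9) and 66.2 in DAH3615 (31.9 to 166), with intervals that overlap.

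Cla008724, on chromosome 2 from 31561416 to 31565029, took 293 counts in DAH3615-MS flowers and 4 in DAH3615-MS floral buds, with 306 in DAH3615 flowers and 5 in DAH3615 floral buds. Cla021706, on chromosome 5 from 5478678 to 5482196, took 175 counts in DAH3615-MS flowers and 170 in DAH3615 flowers, against 1 count in each floral bud library. Its fold was 193 in DAH3615-MS (34.2 to 7667) and 152 in DAH3615 (26.8 to 6022), and a single read sets the lower value in each line. Of the 57 genes it also had the largest fitted difference between the organs, a log2 fold change of 7.30 with a standard error of 0.41 in the additive model. With 1 count in each floral bud library, that standard error is tighter than the counting intervals allow. For Cla016053 (chromosome 2, from 6873834 to 6875324) the folds were 63.5 in DAH3615-MS (42.9 to 98.5) and 26.7 in DAH3615 (18.9 to 39.0). These intervals do not overlap, but they leave out the spread between plants, so no difference between the lines is read from them.

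Low floral bud counts were common in the set. A count of 10 or less was found in DAH3615-MS floral buds for 15 genes and in DAH3615 floral buds for 16 genes, and a count of 3 or less for 7 genes in each. The only count of 0 was that of Cla012221 on chromosome 6 (chosen after its values were seen), which had 159 counts in DAH3615-MS flowers and 6 in DAH3615-MS floral buds, with 121 in DAH3615 flowers and 0 in DAH3615 floral buds. With 0 set to a floor of 3 counts in that library, its flower level was at least 36.0-fold higher in DAH3615, and the counting interval for 121 against 0 counts starts lower, at 28.8-fold.

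An additive model of line and organ, fitted to all 19732 genes with edgeR's quasi-likelihood test, gave the 57 genes log2 fold changes for flower over floral bud of 3.17 to 7.30 (median 3.90), with standard errors of 0.19 to 0.54. The median log2 fold change over all genes was 0.0045. The standard errors rest in part on the line-by-organ difference, which the rule bounds, so the choice of the genes tends to lower them. At a false discovery rate of 0.01, 7.59% of all genes (1497) were called higher in flowers and 7.58% (1496) lower. All 57 genes were among those called higher, which nothing is read from, as the rule chose them on this contrast. Log2 fold changes at least as large as the smallest in the set were fitted for 382 genes in all, so the set is the part of a longer list that met the level and ratio limits in each line separately.

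Compared between the lines, the 57 genes had DAH3615-MS over DAH3615 ratios of 0.559 to 1.80 in flowers (median 1.22) and of 0.279 to 3.28 in floral buds (median 1.13), on CPM + 1. The flower range is bounded by the rule at 0.5 and 2, and the floral bud range is bounded only through the ratio to the flower. Among the 10106 genes with at least 10 CPM in both flower libraries the medians were 1.12 in flowers and 1.13 in floral buds, so library totals placed most genes slightly higher in DAH3615-MS. With library sizes scaled by TMM (edgeR's trimmed mean of M values), those medians moved to 1.02 in flowers and 1.03 in floral buds. In flowers, 41 of the 57 genes (71.9%) were higher in DAH3615-MS by library totals and 35 (61.4%) by TMM-scaled values, against 66.2% and 52.3% of the 10106 genes. For floral buds the count was 33 genes (57.9%) by library totals and 31 (54.4%) by TMM-scaled values, against 68.1% and 55.0% of the 10106 genes. By library totals, 29 genes were higher in DAH3615-MS in both organs, 12 were lower in both and 16 went opposite ways. The share with the same direction in both organs was 71.9% in the set and 70.7% among the 10106 genes, and 71.9% and 65.8% by TMM-scaled values.

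**Figure D3:**
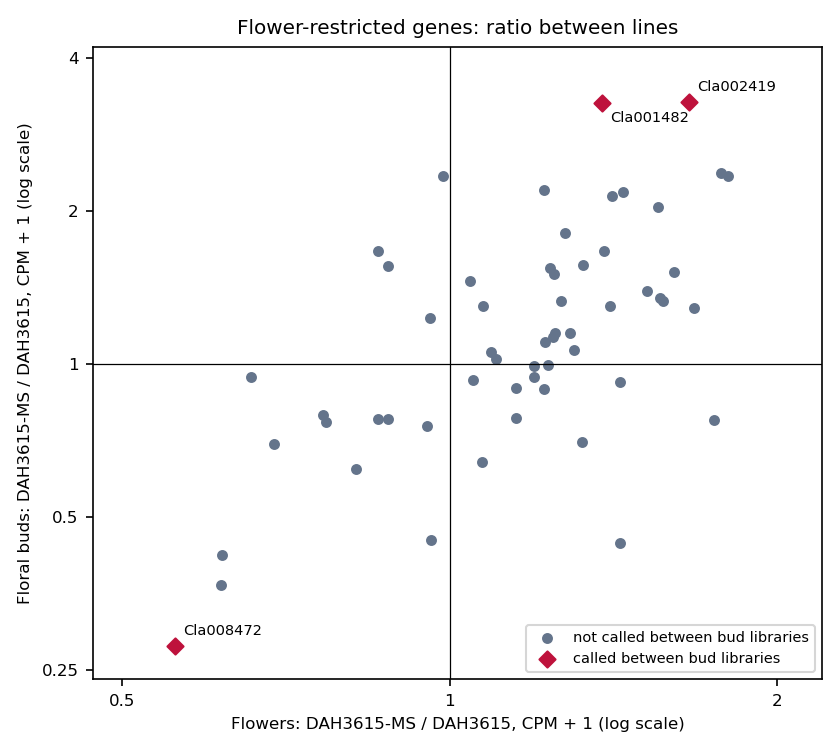
DAH3615-MS over DAH3615 ratio (CPM + 1, log axes) of the 57 genes in flowers, horizontal, and in floral buds, vertical. Each point is a gene, red diamonds are the 3 genes called between the 2 floral bud libraries, and the points spread from 0.279 to 3.28 in floral buds but only from 0.559 to 1.80 in flowers, where the rule sets limits.

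In the additive model 3.95% of all genes (780) were called between the lines, and 0 of the 57 genes (edgeR quasi-likelihood test). At an unadjusted p under 0.05 the model gave 15 of the 57 genes (26.3%) and 3215 of all genes (16.3%). The rule bounds the ratio between the flower libraries, so neither count is read as a result on the set. DESeq2 and limma-voom also called 0 of the 57, against 658 and 1028 of all genes. The likelihood ratio test in edgeR called 1 of the 57, against 1339 of all genes. That gene was Cla008472, with a log2 fold change for DAH3615-MS over DAH3615 of -1.47. For the same reason these counts are not read as a result on the set.

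Between the 2 floral bud libraries, an exact test in edgeR with the dispersion trend taken from the additive model called 5.04% of all genes (994), of which 31 were higher in DAH3615-MS and 963 lower. It called 3 of the 57 genes, or 5.26%, a share near that background. At an unadjusted p under 0.05 the same exact test gave 15 of the 57 genes and 2301 of all genes (11.7%). Neither count is read as a result on the set. The test compares these 2 libraries and not the lines, and the rule had used the floral bud values, so the 3 genes are described by their values alone. Of the 3 genes 2 were higher in DAH3615-MS floral buds, and both are described above. The homeobox leucine zipper gene Cla002419 was 3.82-fold higher as CPM (counting interval 2.42 to 6.25), and the light regulated protein-like gene Cla001482 was 3.81-fold higher (2.39 to 6.32). DAH3615-MS floral buds were shorter, at 3 to 4 mm against 7 to 8 mm in DAH3615, and the part of bud length in this difference was not tested.

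The third gene, Cla008472 on chromosome 1 from 8893417 to 8894830, went the other way. It had 229 counts in DAH3615-MS flowers and 3 in DAH3615-MS floral buds, with 499 in DAH3615 flowers and 25 in DAH3615 floral buds. Floral bud CPM in DAH3615-MS was 0.117 times that in DAH3615 (counting interval 0.0226 to 0.383). On CPM + 1 its ratio between the lines, 0.559 in flowers and 0.279 in floral buds, was the lowest of the set in both organs. Also on CPM + 1, the next lowest floral bud ratios were those of Cla011488 (0.367) and Cla004920 (0.420), both on chromosome 1. The order depends on the added 1 CPM, as without it Cla008633, with 1 floral bud count in DAH3615-MS and 9 in DAH3615, had the lowest ratio, 0.108. Cla011488 had 139 counts in DAH3615-MS flowers and 2 in DAH3615-MS floral buds, with 276 in DAH3615 flowers and 15 in DAH3615 floral buds. Cla004920 had 193 in DAH3615-MS flowers and 7 in DAH3615-MS floral buds, with 381 in DAH3615 flowers and 24 in DAH3615 floral buds.

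For most genes the excess of flower over floral bud was of like size in both lines, which the rule favours. It asks for a ratio of at least 8 in each line and bounds the ratio between the flowers, so nothing is read from the likeness. The 2 ratios of a gene were within 1.5 times of each other for 41 of the 57 genes, and the larger ratio was that of DAH3615-MS for 33. They were over 2 times apart for 6 genes (chosen after their values were seen). DAH3615-MS had the larger ratio for 4 of these: Cla009280 (51.3 in DAH3615-MS and 15.9 in DAH3615), Cla016053 (51.8 and 22.97), Cla008633 (24.4 and 11.5) and Cla008472 (29.4 and 14.7). DAH3615 had the larger ratio for the other 2, Cla022865 (9.36 in DAH3615-MS and 22.2 in DAH3615) and Cla001482 (8.46 and 19.97). Floral bud counts behind these ratios were 5 in DAH3615-MS and 18 in DAH3615 for Cla009280, 1 and 9 for Cla008633, 3 and 25 for Cla008472, and 15 and 3 for Cla022865. They were larger for Cla016053, with 25 in DAH3615-MS and 33 in DAH3615, and for Cla001482, with 90 and 23. Whether the lines differ in this response could not be tested, because the model has 1 residual degree of freedom and that is the same difference.

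Genes at the edges of the rule show how it drew the set. Just inside the ratio of 8 were Cla005919 (smaller ratio 8.05), Cla013890 (8.06) and Cla014696 (8.14), and just outside were Cla011244 (7.999), Cla015156 (7.98) and Cla006266 (7.97). Cla005919 on chromosome 1 had 876 counts in DAH3615-MS flowers and 115 in DAH3615-MS floral buds, with 1102 in DAH3615 flowers and 90 in DAH3615 floral buds. Cla011244 on chromosome 3 had 305 in DAH3615-MS flowers and 37 in DAH3615-MS floral buds, with 572 in DAH3615 flowers and 39 in DAH3615 floral buds. Just inside the level of 10 CPM were Cla013739 with 19.3 CPM in DAH3615-MS flowers and 11.1 CPM in DAH3615 flowers, Cla015378 with 15.3 and 18.8 CPM, and Cla021660 with 24.6 and 18.7 CPM. Outside it, only 2 genes met the other conditions. Cla019349 had 40 counts in DAH3615-MS flowers and 97 in DAH3615 flowers, and Cla017660 had 41 and 48, and both had 0 counts in each floral bud library.

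The limit between the lines left out 8 genes that passed the flower thresholds in each line. Of these, 6 were over 2-fold higher in DAH3615-MS flowers and 2 were lower. Cla019485 on chromosome 3 had far more reads than any gene of the set, with 16582 counts in DAH3615-MS flowers and 663 in DAH3615-MS floral buds, and with 9563 in DAH3615 flowers and 937 in DAH3615 floral buds. It fell just outside, with a flower ratio of 2.09. Within the limit, the gene nearest to it was Cla004998 on chromosome 4, with 221 counts in DAH3615-MS flowers and 15 in DAH3615-MS floral buds, and with 145 in DAH3615 flowers and 3 in DAH3615 floral buds (flower ratio 1.80). Of the 8 genes 2 have a description. A cytochrome P450, from a large family of oxidising enzymes, was encoded by Cla000234, with 231 counts in DAH3615-MS flowers and 4 in DAH3615-MS floral buds, and with 636 in DAH3615 flowers and 20 in DAH3615 floral buds. The receptor kinase gene Cla001254 had 1238 counts in DAH3615-MS flowers and 82 in DAH3615-MS floral buds, with 718 in DAH3615 flowers and 46 in DAH3615 floral buds.

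The 29 genes of the set that the naming rule does not pick had 129 to 1319 counts in DAH3615-MS flowers and 1 to 127 in DAH3615-MS floral buds, and 121 to 1130 in DAH3615 flowers and 0 to 94 in DAH3615 floral buds. Their ratios of flower to floral bud were 8.20 to 51.3 in DAH3615-MS and 8.55 to 22.2 in DAH3615. They thus cover the middle of the set in level and, in DAH3615-MS, nearly its whole range in ratio.

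Position on the genome did not enter the rule. The 57 genes lay on all 11 chromosomes and on the unplaced sequence. Chromosome 1 held 9 of them (15.8%, against 11.5% of all genes with a count) and chromosome 10 held 2 (3.51%, against 9.36%), and the other chromosomes held 3 to 6 each. These shares are given without a test. No 2 of the genes were neighbours in the count table, and none overlapped another gene of the table. The closest pair was Cla018184 and Cla018189 on chromosome 4 (chosen after their values were seen), which were 68.2 kb apart with 4 genes between them. Cla018184 had 307 counts in DAH3615-MS flowers and 21 in DAH3615-MS floral buds, with 389 in DAH3615 flowers and 29 in DAH3615 floral buds. Cla018189 had 272 in DAH3615-MS flowers and 22 in DAH3615-MS floral buds, with 314 in DAH3615 flowers and 13 in DAH3615 floral buds. Every other pair was at least 211 kb apart, so the set is scattered. Annotated spans from gene start to gene end were 204 to 5475 bases in the set, with a median of 1748 bases, against 2323 bases over all genes with a count and 3204 bases over the 10106 genes with at least 10 CPM in both flowers. The plus strand held 49.1% of the set and 50.2% of all genes with a count.

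**Figure D4:**
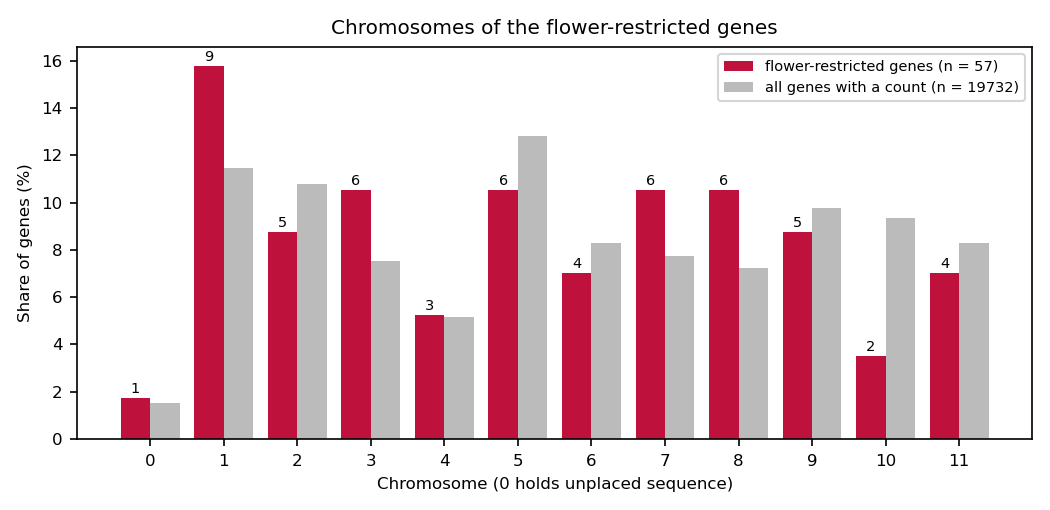
Share of the 57 genes of the set (red, left bar, with the number of genes above) and of all 19732 genes with a count (grey, right bar) on each chromosome, in percent. Chromosome 1 holds 9 genes of the set (15.8% against 11.5%) and chromosome 10 holds 2 (3.51% against 9.36%).

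Groups of genes related to flower opening were taken from the 1999 descriptions by keyword, to place the described genes of the set among their relatives. Of all 1999, 154 were called higher and 123 lower in flowers in the additive model (edgeR quasi-likelihood test, adjusted p under 0.01). Among 13 genes of scent and pigment, the chalcone synthase gene Cla000287 was the only one in the set and the only one called higher. In the same group 1 was called lower, the isoflavone reductase-like Cla001620. That gene had 2 counts in each DAH3615-MS library, with 210 in DAH3615 flowers and 968 in DAH3615 floral buds, so its call rests on DAH3615 alone. Another gene described as chalcone synthase, Cla002945, was near the floor and not called. It had 7 counts in DAH3615-MS flowers and 3 in DAH3615-MS floral buds, with 5 in DAH3615 flowers and 2 in DAH3615 floral buds. The median log2 fold change of the scent and pigment group was -0.61. Among 25 genes of ethylene response and senescence, which include the NAC and WRKY transcription factors active in ageing tissue, 6 were called higher, 0 lower and 0 were in the set. Closest to the rule came the WRKY transcription factor 5 gene Cla002243, with 407 counts in DAH3615-MS flowers and 101 in DAH3615-MS floral buds, and with 341 in DAH3615 flowers and 33 in DAH3615 floral buds. Its ratio was 4.26 in DAH3615-MS and 8.02 in DAH3615, so it passed in DAH3615 alone.

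Peroxidases, enzymes that act on cell walls and on hydrogen peroxide, were called higher for 5 of 14 genes, with none lower and none in the set. Of 17 cell wall genes, which also include expansins and polygalacturonase inhibitors, 6 were called lower in flowers, 0 higher and 11 not called, with a median log2 fold change of -0.30. The 6 were 3 pectate lyases, 2 polygalacturonases and an expansin. For the polygalacturonase gene Cla001080 the call rests mainly on DAH3615, with 4 counts in DAH3615-MS flowers and 12 in DAH3615-MS floral buds, and with 16 in DAH3615 flowers and 357 in DAH3615 floral buds. Both lines share the difference for the pectate lyase gene Cla002573, which had 162 counts in DAH3615-MS flowers and 1677 in DAH3615-MS floral buds, with 163 in DAH3615 flowers and 1347 in DAH3615 floral buds. Among 8 genes picked by keywords of sugar transport and sucrose, 1 was called higher and 3 lower. The group includes Cla000817, described as an invertase/pectin methylesterase inhibitor protein and not as a transporter. The 3 lower genes, Cla000254, Cla000359 and Cla000966, had 0 counts in both DAH3615-MS libraries, so these calls rest on DAH3615 alone. The one called higher, the bidirectional sugar transporter N3 gene Cla002641, had 436 counts in DAH3615-MS flowers and 99 in DAH3615-MS floral buds, with 405 in DAH3615 flowers and 38 in DAH3615 floral buds. For 17 genes of lipids and cuticle the counts were 5 higher and 3 lower, for 13 hormone genes 1 and 4, for 18 cytochrome P450 genes 1 and 1, and for 9 MYB genes 1 and 1, without a member of the set. Of the genes called lower, the lipid-transfer protein gene Cla002146 and the cytochrome P450 gene Cla001029 had at most 2 counts in each DAH3615-MS library. The single cytochrome P450 called higher was Cla000234, which the limit between the lines left out. Of 20 genes with histone, cyclin or kinesin in their description, among them cyclin-dependent kinase inhibitors, 0 were called higher and 2 lower. Of 5 green tissue genes, 1 was called higher and 0 lower. Of 3 MADS-box genes, the family that sets floral organ identity, 1 was clearly expressed, Cla000691, with 1414 counts in DAH3615-MS flowers and 3019 in DAH3615-MS floral buds, and with 1587 in DAH3615 flowers and 2060 in DAH3615 floral buds, and 0 were called.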

How the data were processed

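RNA of floral buds and flowers was sequenced in 4 paired-end libraries, 1 per condition. The authors used Trimmomatic for trimming, Bowtie2 within TopHat2 for alignment to the watermelon genome, version 1, and HTSeq for counting. The deposited values are raw counts for each gene, without normalization. Tool versions and the use of strand are not given in the sources used here.

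CPM were computed from column totals, with 1 CPM added in ratios. Genes with a count (19732 of 23440) were fitted in edgeR 4.0.16 (R 4.3.3) with TMM factors of 0.935 to 1.06 and an additive model of line and organ, as in the study's 2-way model. The quasi-likelihood test in its earlier form was used (1 residual degree of freedom, prior degrees of freedom 6.43, biological coefficient of variation 0.174), with Benjamini-Hochberg adjustment at 0.01. Standard errors are the absolute log2 fold change over the square root of F. With 1 library per condition, the only residual is the line-by-organ difference. Differences between plants enter it but cannot be told apart from it, so p-values and standard errors do not measure them on their own. DESeq2 1.42.0 and limma 3.58.1 were alternatives, and Python 3.11.15 with scipy 1.17.1 made the summaries. Counting intervals are 95% exact binomial.

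The members, gene lists and tests were chosen with earlier results of these data known. Genes were named by rule: the 10 with the highest mean flower CPM, the 5 with the largest smaller ratio, all with a description, table neighbours (none were found), the 3 at each end of the floral bud ratio between lines, and the 3 on each side of the ratio and level thresholds. Others are named as chosen after their values were seen. The scaling of line directions, of the floral bud test and the newer quasi-likelihood form were alternatives added after seeing the data. The study's own p-values were not used.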

Additional observations from a re-analysis of the deposited data

How the results depend on the processing

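The size of the set followed its thresholds. A ratio of at least 4 gave 240 genes and of at least 16 gave 6. Other scalings, pseudocounts of 0.5 and 2 CPM, levels of 5 and 20 CPM and other limits between the lines gave 43 to 68 genes, and the 57 were all among the 66 found with TMM-scaled CPM. All 57 were called higher in flowers in each of the 11 alternative settings, which the choice of the genes on these same libraries fixes and which is no sign of stability. Over all genes the number called between organs, 2993, became 5549 at an adjusted p under 0.05, 4933 with the likelihood ratio test, 919 when the biological coefficient of variation was set to 0.4, and 1411 with the newer quasi-likelihood form. Between lines the likelihood ratio test called 1339 genes in place of 780, and 1 of the 57 in place of 0. The exact test of the floral bud libraries called 994 of all genes and 3 of the 57. Those 3 were also called with DESeq2 size factors and with library totals. The causes of these differences were not tested. With 1 library per condition the spread between plants cannot be measured apart from the line-by-organ difference. Floral bud counts of 10 or less limit the precision of the ratios.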

Other observations

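Of the genes that passed the flower thresholds in 1 line only, 57 did so in DAH3615-MS and 46 in DAH3615. The ratio of flower to floral bud in the other line was at least 4 for 34 of the 57 and for 38 of the 46, with medians of 4.86 and 5.48. A ratio under 1 in the other line was found for 4 of the 57 and 0 of the 46. Cla002787 and Cla002788, which lie side by side on chromosome 3 from 10829825 to 10830613 and from 10830636 to 10832990, are both described as nitrate reductase 2, an enzyme that starts the assimilation of nitrate, and both passed in DAH3615-MS only (chosen after their values were seen). Cla002788 had 1597 counts in DAH3615-MS flowers and 122 in DAH3615-MS floral buds, with 1222 in DAH3615 flowers and 380 in DAH3615 floral buds. Cla002787 had 524 in DAH3615-MS flowers and 33 in DAH3615-MS floral buds, with 424 in DAH3615 flowers and 138 in DAH3615 floral buds. In both genes the lines were closer in flowers than in floral buds, where DAH3615-MS was lower. Passing in DAH3615-MS only favours genes with a low floral bud value in that line, so this is not read as a result. As the 2 genes nearly touch, reads assigned to one may come from the other. Peroxidase Cla001825 also passed in DAH3615-MS only, with 188 counts in DAH3615-MS flowers and 11 in DAH3615-MS floral buds, with 89 in DAH3615 flowers and 28 in DAH3615 floral buds.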
